A study of Drosophila melanogaster with 3 samples.

Results

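The T-box genes of Drosophila melanogaster encode transcription factors that share a DNA-binding domain named after Brachyury. The family comprised 8 genes here, bi, Doc1, Doc2, Doc3, mid, H15, byn and org-1, of 13945 protein-coding genes in the annotation. Their binding by Combgap was read from lists of ChIP-seq peaks. Combgap is a zinc-finger protein that binds GT repeats and is encoded by cg. The gene family was proposed with earlier results of these data in view, and its peaks were selected by position: a peak belonged to a gene when its summit lay in the gene body or within 5 kb of it. Of 7913 summits in the list that passed a limit on the irreproducible discovery rate (IDR), called thresholded below, 16 met this rule, in 14 peak intervals. Ranks order that whole list by peak signal, with 1 the highest. They are given as a description without a test, since signal and position were the measures used to choose the peaks.

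All 3 samples were biological replicates of 1 group. They were whole embryos of pooled sexes, collected from 0 to 24 h, from a transgenic line in which cg carries GFP at its C-terminal end, and chromatin was precipitated through the GFP. No untagged, mutant or treated group was present, so no contrast between conditions could be made. The labels name 1 line and do not say whether untagged Combgap was also present. A stronger peak can come from more cells bound or from more binding per cell, and in whole embryos these cannot be told apart. The deposited lists held 30000 rows for each replicate and 30000 for the pooled alignments. Read depth is unknown. All 7913 thresholded rows were the 7913 highest of the pooled list, so a weaker pooled row is one that fell below that limit.

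T-box factors act in the patterning of tissues and the choice of cell fate. The gene bi, also called optomotor-blind, responds to the Dpp signal in the wing disc and is needed in the optic lobes. The linked Dorsocross genes Doc1, Doc2 and Doc3 act in the amnioserosa and dorsal mesoderm, from which heart cells arise. The linked genes mid and H15 act in the heart and in ventral fate of the legs. The Brachyury homologue byn is required for the hindgut, and org-1 acts in visceral and body-wall muscle.

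Binding was spread very unevenly over the family. The bi locus held 10 of the 16 summits, with the highest at rank 15. Doc1, Doc2, Doc3, mid, H15 and org-1 held 1 summit each, at ranks 2454 to 5237, and byn held none. The 4 T-box summits ranked 1000 or higher all lay at bi. Thus 7 of 8 T-box genes had a summit. Over all protein-coding genes the share was 46.7%, and it was 58.0% over the 7114 genes with bodies between 2.05 and 72.8 kb, the lengths of the shortest and longest T-box genes. The 10 summits of bi were matched or exceeded by 0.832% of protein-coding genes (116 of 13945), a share not matched for gene length. Per length the contrast was smaller. The bi window of 82.8 kb held 1.21 summits per 10 kb, and all gene windows, with or without a summit, averaged 0.722. The windows of the other 6 bound genes, of 12.1 to 22.3 kb, held 0.448 to 0.830, and that of byn held 0. With 1 summit each, the rates of those 6 follow from window length alone, so no likeness to the average is read from them. Exactly 1 summit, as at the other 6 bound T-box genes, was found at 35.7% of all genes with any.

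The sequences below are the windows of 101 bp centred on the highest summit of each gene, with 3 further bi sites. They show how GT repeats lie at some strong and weak sites, and the 3 further bi sites were chosen after values were seen. All windows are written 5′ to 3′ on the plus strand of dm6. Capitals mark GT runs, which are unbroken alternations of G and T, or of C and A for the other strand, that hold GTGTGT or, on the other strand, ACACAC. An alternation of 6 bases in the other phase, TGTGTG or CACACA, is not counted and stays in lower case. The window of byn is centred on its highest pooled row, since no thresholded summit exists there.
bi rank 15, chrX:4425146-4425246: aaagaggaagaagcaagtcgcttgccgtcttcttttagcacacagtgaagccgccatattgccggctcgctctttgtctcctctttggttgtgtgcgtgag
bi rank 70, chrX:4426877-4426977: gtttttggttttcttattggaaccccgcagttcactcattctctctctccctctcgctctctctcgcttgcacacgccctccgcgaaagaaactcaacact
bi rank 2218, chrX:4412667-4412767: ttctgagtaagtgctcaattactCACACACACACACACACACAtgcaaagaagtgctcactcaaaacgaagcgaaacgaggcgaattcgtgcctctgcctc
bi rank 2869, chrX:4422250-4422350: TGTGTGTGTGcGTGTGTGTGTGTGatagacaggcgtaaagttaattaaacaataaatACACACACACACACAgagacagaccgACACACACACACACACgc
H15 rank 2454, chr2L:5403712-5403812: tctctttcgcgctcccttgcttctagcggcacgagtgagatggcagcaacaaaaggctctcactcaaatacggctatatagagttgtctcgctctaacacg
Doc3 rank 3225, chr3L:9004935-9005035: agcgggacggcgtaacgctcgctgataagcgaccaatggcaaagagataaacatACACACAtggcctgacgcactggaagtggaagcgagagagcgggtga
org-1 rank 3680, chrX:8445274-8445374: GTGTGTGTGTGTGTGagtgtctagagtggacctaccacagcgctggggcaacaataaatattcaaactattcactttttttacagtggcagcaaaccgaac
Doc2 rank 4473, chr3L:9019384-9019484: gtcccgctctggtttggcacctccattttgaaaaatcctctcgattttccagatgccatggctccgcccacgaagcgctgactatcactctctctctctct
Doc1 rank 4909, chr3L:9041109-9041209: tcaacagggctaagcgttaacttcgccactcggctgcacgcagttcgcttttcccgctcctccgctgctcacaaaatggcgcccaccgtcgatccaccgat
mid rank 5237, chr2L:5461286-5461386: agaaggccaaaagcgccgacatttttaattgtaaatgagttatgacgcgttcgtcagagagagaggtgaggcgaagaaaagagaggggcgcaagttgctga
byn, not thresholded, chr3L:11927456-11927556: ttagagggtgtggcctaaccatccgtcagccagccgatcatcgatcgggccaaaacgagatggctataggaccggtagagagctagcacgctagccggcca

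The bi windows at ranks 15 and 70 hold no capitals, although that of rank 15 holds CACACA and TGTGTG, while the windows at ranks 2218 and 2869 carry runs of 20 and up to 16 bases. The windows of H15, Doc2, Doc1, mid and byn likewise hold none, and the org-1 window opens within a long run. The bi windows not printed were more mixed. Longest runs there were 0 and 8 bases at ranks 196 and 340. At ranks 3200, 3998, 4649 and 5812 they were 6, 7, 7 and 19 bases.

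At bi, on the plus strand of X from 4412856 to 4485647 (FBgn0000179), most summits lay in the stretch before the innermost start site, and most of the gene past it held few. Annotated transcription start sites (TSSs) lie at the 5′ end of the gene, 606 bp inside it and 14.3 kb inside it. A pair of summits lay upstream of the gene, 7 lay within the 8 kb before the innermost TSS, and 1 lay 40.4 kb inside the gene. Within 500 bp of a TSS lay 2 of the 10, and the other 8 lay 1277 to 26085 bp from the nearest. All 10 were intronic by annotation. For the 2 upstream of the gene the intron belongs to lncRNA:CR32773, a noncoding gene on the opposite strand that spans the locus. ChIP-seq has no strand, so its signal cannot be assigned to either gene.

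The highest bi summit, at 4425196 in the interval 4424687 to 4425737, lay 1939 bp upstream of the innermost TSS. It ranked 16, 20 and 14 in replicates 1, 2 and 3 (mean 16.7 ± 3.06, SD, n = 3). Closer to that TSS, 208 bp upstream, the summit at 4426927 had thresholded rank 70. Its replicate ranks were 63, 89 and 74 (75.3 ± 13.1). Both sites thus stood among the 100 highest rows of every replicate list. Their thresholded signals were 15.7 and 11.5 times the median of the list.

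At the 5′ end of bi the order of promoter and upstream site was the same. The summit 1277 bp upstream of the gene, at 4411579, ranked 196, and 186, 208 and 202 in the replicates (199 ± 11.4). By contrast, the one 139 bp upstream, at 4412717, ranked 2218, and 2476, 2066 and 2283 (2275 ± 205). At each end of this stretch the stronger summit was thus the one over 1 kb from the TSS. The replicate ranks of the 2 sites at the 5′ end did not overlap.

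Between these groups, an interval from 4423565 to 4424557 held summits of ranks 340 and 3200, at 3150 and 2897 bp upstream of the innermost TSS. The first ranked 320, 367 and 359 in the replicates (349 ± 25.1). The second ranked 3078, 3318 and 2106 (2834 ± 642), the widest relative spread of the 16 summits. Its position also moved most, with replicate summits up to 53 bp away. Another interval, from 4421905 to 4422690, held ranks 2869 and 5812, and the remaining summits of the gene, 7.44 and 40.4 kb inside it, ranked 3998 and 4649. Beyond the innermost TSS, over the last 58.5 kb of the gene and 5 kb past it, the pooled list held 33 rows, of which 1 passed the threshold.

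**Figure D1:**
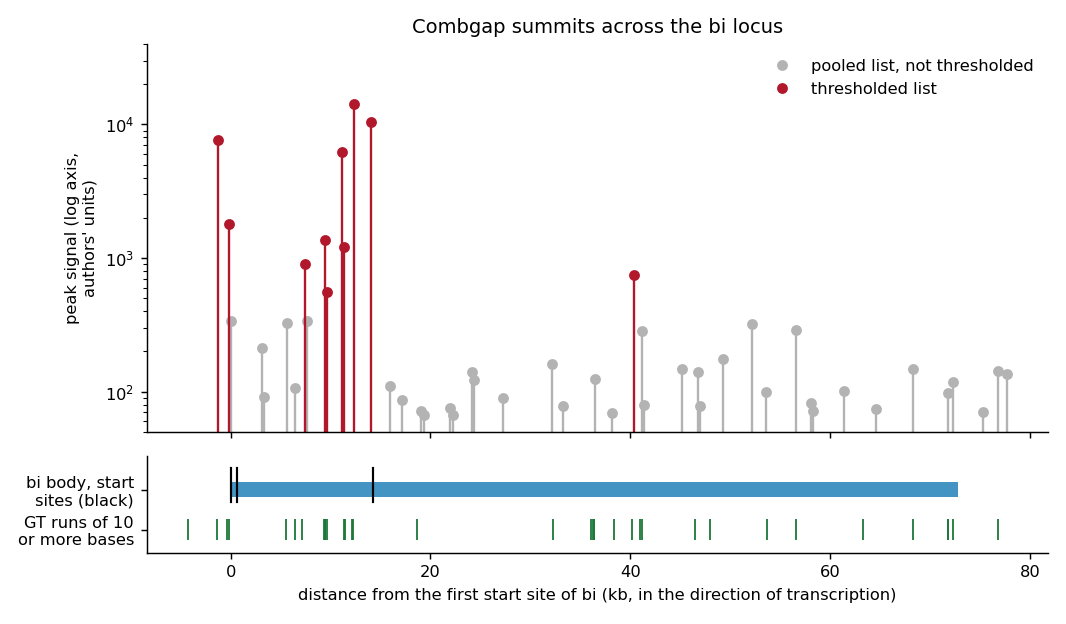
Peak signal on a log axis, in the authors' units, against distance from the first start site of bi in kb, for thresholded summits (red) and weaker rows of the pooled list (grey), above the gene body, its start sites and GT runs of 10 or more bases. Of the 10 red summits, 9 lie between 1277 bp upstream of the gene and 14.1 kb inside it, and the last lies at 40.4 kb.

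The Dorsocross genes lie together on 3L, and each had 1 summit a short way upstream of its own TSS. Doc3 (plus strand, 9005196 to 9007249, FBgn0035954) had its summit at 9004985, 211 bp upstream and at rank 3225. Its replicate ranks were 3345, 3430 and 3532 (3436 ± 93.6, SD, n = 3). That summit also falls within 5 kb of CG5194, a neighbouring coding gene. Doc2 (minus strand, 9012686 to 9019246, FBgn0035956) had its summit at 9019434, 188 bp upstream, with rank 4473. In the replicates it ranked 4707, 4723 and 4914 (4781 ± 115). For Doc1 (plus strand, 9041375 to 9045042, FBgn0028789) the summit at 9041159 lay 216 bp upstream, at rank 4909. Replicate ranks there were 5187, 5447 and 5275 (5303 ± 132). The order Doc3, Doc2, Doc1 held in every replicate with no overlap of ranks. The gap of 5.44 kb between Doc3 and Doc2 held no summit. The 22.1 kb between Doc2 and Doc1 held only the promoter summits of those genes.

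On 2L, H15 and mid showed the same placement. H15 (plus strand, 5404280 to 5416593, FBgn0016660) had its summit at 5403762, 518 bp upstream, at rank 2454. Its replicate ranks of 2511, 2477 and 2786 (2591 ± 169) made it the strongest T-box site outside bi in every replicate. The summit of mid (plus strand, 5461639 to 5467610, FBgn0261963) lay at 5461336, 303 bp upstream. It ranked 5237, and 5717, 5826 and 5292 in the replicates (5612 ± 282). It was the weakest of the 6 sites outside bi in every replicate, although in replicate 3 it and Doc1, at 5292 and 5275, were nearly level. The 45.0 kb between these linked genes held 1 further summit, of rank 6891, at 13294 bp from mid and beyond the 5 kb limit.

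The org-1 summit was placed differently. On X, org-1 (minus strand, 8447691 to 8455069, FBgn0021767) had its summit at 8445324, 2367 bp past the 3′ end of the gene. The nearest TSS, 2976 bp away, belonged to CG12123 and not to org-1. The summit had rank 3680, and 3695, 3736 and 4324 in the replicates (3918 ± 352). This was the T-box summit farthest outside a gene body. The nearest summit beyond the limit of 5 kb, among those of org-1, lay 9668 bp from the body at rank 5723, by the start of Miga.

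No thresholded summit met the rule at byn (3L, plus strand, 11927693 to 11935919, FBgn0011723), which lies inside an intron of CG44837. The nearest thresholded summit was 66614 bp from the gene. Weak rows were nevertheless present in every list. A pooled row at 11927506, 187 bp upstream of the TSS, ranked 17963 of 30000. Rows 178, 200 and 188 bp upstream ranked 15990, 21486 and 27615 in replicates 1, 2 and 3. The deposited −log10 q was 1.67 for the pooled row and 2.37, 1.12 and 0.718 for the replicate rows. The highest values in those lists were 4.35 and 4.37, 4.27 and 4.11. The position recurred closely while the rank varied widely. A second weak row lay 2614 bp inside the gene, with pooled rank 23368.

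**Figure D2:**
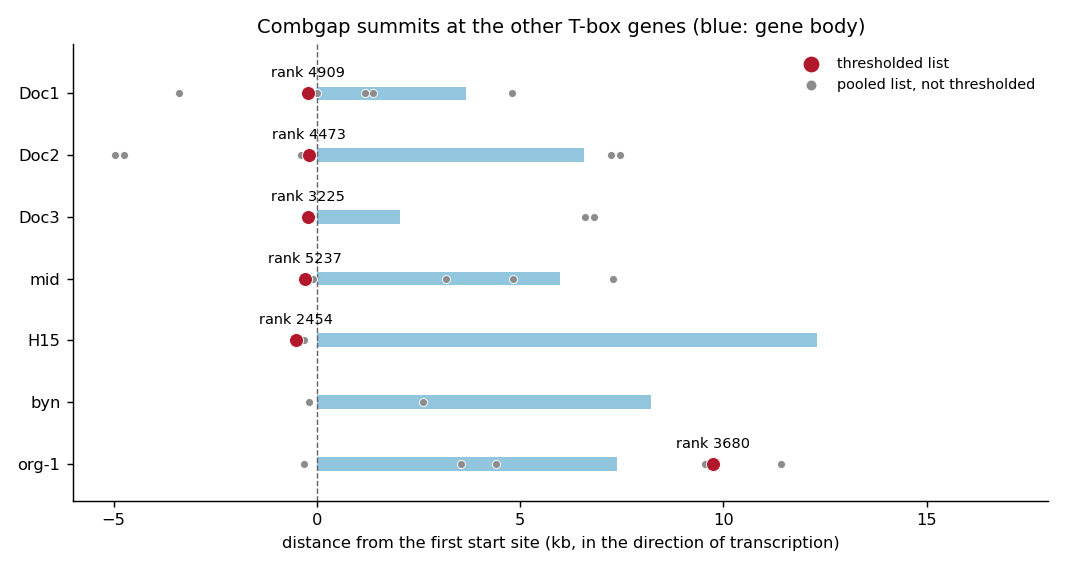
Positions of thresholded summits (red, with rank) and of weaker pooled rows (grey) at the T-box genes other than bi, as distance in kb from the first start site in the direction of transcription, with gene bodies in blue. The red summits of Doc1, Doc2, Doc3, mid and H15 lie 188 to 518 bp upstream of the start site, that of org-1 lies past the gene, and byn has grey rows only.

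Summits close to a T-box start site were all upstream of it. Of the 16, 7 lay within 1 kb of the nearest TSS and 7 of these 7 were upstream, at 139 to 518 bp. In the whole list 42.6% of summits within 1 kb of a TSS were upstream of it. A distance of 500 bp took in 6 of the 16 summits (37.5%), against 45.0% of all thresholded summits. Counted by gene, 6 of 8 T-box genes had a thresholded summit within 1 kb upstream of a TSS of their own, and 15.6% of all protein-coding genes did. In the pooled list all 8 had one, against 33.1% of all genes, the additional rows being that of byn and one 307 bp upstream of org-1 at pooled rank 17955. This distance of 1 kb was chosen after the positions were seen. At Doc1, Doc2, Doc3, mid and H15 the peak interval itself ended 28 to 344 bp short of the TSS, while the promoter peaks of bi crossed it.

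Peak intervals were wider at the strong bi summits than at the other genes. The 4 bi summits of ranks 15 to 340 lay in intervals of 913 to 1051 bp. Weaker bi summits lay in intervals of 392 to 993 bp, and the weakest T-box summit, bi rank 5812, shared one of 786 bp with rank 2869. The 6 summits outside bi lay in intervals of 230 to 436 bp, with a median of 302 bp, against 579 bp over all thresholded peaks. The bi summits of ranks 3998 and 4649, in intervals of 402 and 392 bp, fell inside that range. In the whole list the median width fell from 1176 bp for ranks 1 to 1000 to 334 bp for ranks 5001 to 6000. It was 554 bp for ranks 3001 to 4000, 399 bp for ranks 4001 to 5000 and 504 bp for the ranks after 6000. Whether width differs between genes at equal rank was not tested.

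Replicates placed the T-box summits alike. All 16 were overlapped by a row in each replicate list, and 16 different rows were found in each. For the list as a whole, 99.8% of summits were overlapped in all replicates, and the thresholded list was itself selected for such recurrence. Among the 5000 highest rows of every replicate stood 12 of 16 T-box summits, 8 at bi and 4 elsewhere, against 53.4% of all summits. The farthest replicate summit was a median of 22.0 bp from the thresholded one for the T-box summits and 25.0 bp for all. The SD of the replicate ranks was a median of 7.91% of their mean for the T-box summits, with a range of 2.41 to 22.6%, and 10.5% for all. One control alignment served all 3 replicate lists, and what it adds to this likeness was not tested.

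**Figure D3:**
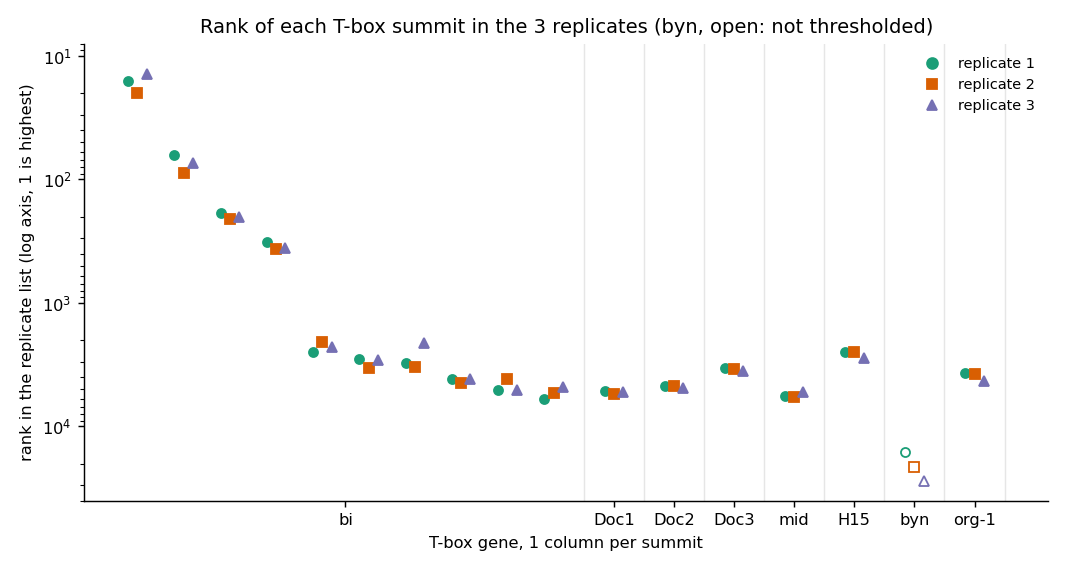
Rank of each T-box summit in the lists of replicates 1, 2 and 3 on a log axis, where 1 is the highest and 1 column is 1 summit. The 4 leading bi summits stand at 14 to 367 in every replicate, the summits of the other bound genes at 2477 to 5826, and the weak byn row (open symbols) at 15990 to 27615.

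GT repeats were common at bi and less uniform elsewhere. GTGTGT, on either strand and within 100 bp of the summit, was found at 9 of 10 bi summits and at 3 of the other 6, those of Doc3, H15 and org-1. Together these were 12 of 16, against 63.3% of all thresholded summits and 70.4% of those on X, where bi and org-1 lie. The bi site without it was that of rank 70. Its window held 6 matches to GAGAGA, the repeat bound by GAGA factor, with overlapping matches counted. The bi windows of ranks 340 and 2869, which held GTGTGT, had 7 and 1 such matches.

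Inside bi the longest repeats did not mark the strongest sites. Within 50 bp of the summit GTGTGT was found at 1 of the 4 bi summits of ranks 15 to 340 and at 6 of the 6 weaker ones. Among all summits ranked 1000 or higher, 62.1% had GTGTGT within 50 bp, and 47.0% did over the whole list. The count depends on phase. With TGTGTG also counted, a choice made after seeing the data, it was 2 of the 4, with rank 15 added, and 6 of the 6, against 70.9% and 54.8%. At rank 15 the nearest counted GT run lay 77 bp from the summit, and the longest within 100 bp had 10 bases. For the summit of rank 196 these values were 53 bp and 17 bases. The distance at rank 15 depends on phase, since an uncounted CACACA lay within 50 bp of that summit, near the centre of its printed window. The summits of ranks 2218, 2869 and 5812 lay 8, 7 and 5 bp from the nearest run, with longest runs of 20, 16 and 19 bases. The contrast was not uniform. The strong summit of rank 340 lay 8 bp from a run of 8 bases. The weaker summits of ranks 3200, 3998 and 4649 lay 45, 32 and 20 bp from the nearest run, with longest runs of 11, 7 and 7 bases. These are counts over few sites of 1 locus, and no test was made.

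**Figure D4:**
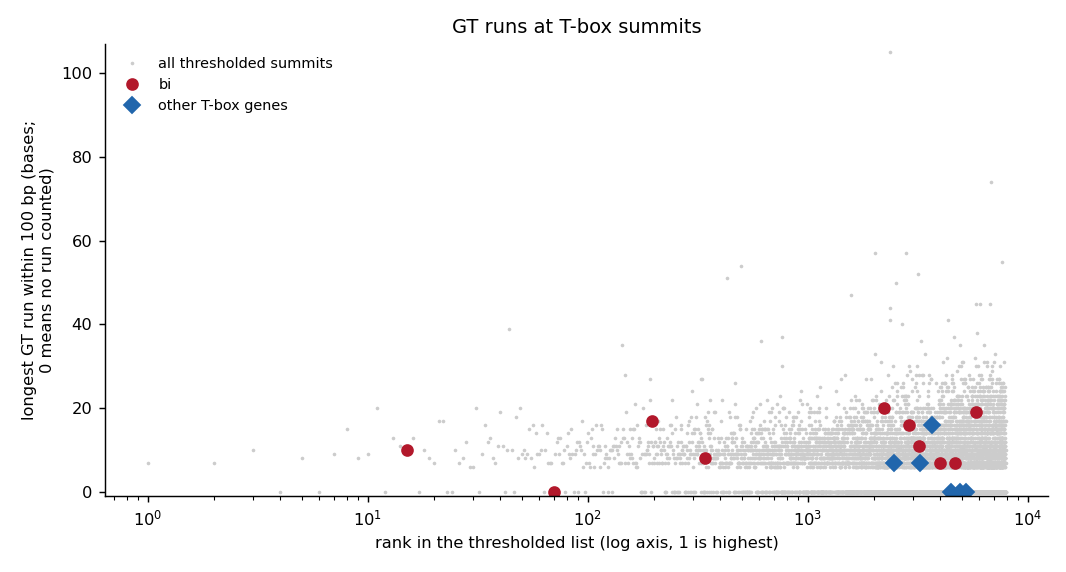
Longest GT run within 100 bp of the summit, in bases, against rank in the thresholded list on a log axis, for bi (red), the other T-box genes (blue) and all 7913 summits (grey); 0 means no run that holds GTGTGT. The bi summit of rank 70 has none, and the longest T-box runs, of 16 to 20 bases, are at ranks 196 to 5812.

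Most GT runs at T-box genes carried no summit. The bi window of 82.8 kb held 121 runs (14.6 per 10 kb), of which 19 (15.7%) had a thresholded summit within 100 bp. Genome-wide there were 7.61 runs per 10 kb and 8.59% had one. X as a whole held 9.26 runs per 10 kb, and 10.1% had one. Several runs can share a summit, as did 4 runs each at the bi summits of ranks 2869 and 3200. Of the 36 bi runs of 10 or more bases, 10 had a summit (27.8%), against 19.7% in the genome. The windows of the other 7 genes held 65 different runs, of which 3 had a summit (4.62%). The byn window held 12 runs of at most 8 bases, none with a summit, and the H15 window held 19, of which 1 had a summit.

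Other short motifs were counted in the same windows of 100 bp on either side. GCCAT, the core of the site of the Polycomb group protein Pho, was found at 12 of 16 T-box summits, against 29.9% of all summits. TGAGTG, one form of the site of Zeste, was found at 9 of 16, against 23.4%, and GAGAGA at 6 of 16, against 21.8%. Of the 16 windows, 10 came from the bi locus alone. Their median content of G and C was 50.2% over the 16, against 45.8% for all summits, and what this adds to the counts was not tested. AGGTGTGA, which is the consensus site of T-box factors themselves and contains part of a GT repeat, was found at 0 of 16 and at 0.518% of all summits (41 of 7913). That none matched says only that these letters are not in these windows. Paralogous sites were not copies of each other. The longest run of bases shared between the windows of the Doc1, Doc2 and Doc3 summits was 8 to 11 bases, and it was 8 bases between mid and H15.

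By the rank of its highest summit, bi stood between grn, a GATA factor gene at rank 14, and wg, the gene of the Wingless ligand, at rank 16. H15 followed stan, which encodes a cadherin of planar polarity, at rank 2453. Its successors at 2458 included Nup58, a nuclear pore gene. Doc2 came just after CRMP and Rheb, which share a summit of rank 4472 with CG12746 and CG2931, and before CG12605 at 4474. Doc3 stood between Lk, a neuropeptide gene that shares rank 3223 with CG34039, and Patr-1 at 3226. Doc1 lay between a summit of rank 4908, shared by CG7607, nkt and Plod, and CG5391 at 4912. For mid the neighbours were CG42747 at 5232 and CG10737 at 5238. For org-1 they were CG6171, Trax, CG14868 and CG34404 at 3677 and rasp, CG15812 and Asciz among those at 3683. This likeness is in rank alone.

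Genes of related roles were listed, with earlier results of these data known. Whether each acts with a T-box factor was not examined. Of 37 such genes, 31 had a summit in the body or within 5 kb, with a median highest rank of 1069. The share with a summit over all protein-coding genes was the 46.7% given above, against which the counts of each list stand. Over all protein-coding genes with a summit that median was 1989. All 9 genes of wing, Dpp and Wg signalling had one, led by wg at rank 16 and by hh, the gene of the Hedgehog ligand, at rank 29. In the heart and dorsal mesoderm list it was 6 of 7, led by the muscle regulator Mef2 at rank 93 and the GATA factor gene pnr at rank 121, while bap, a visceral mesoderm homeobox gene, had none. The hindgut and terminal list had 6 of 7, led by the forkhead gene fkh at rank 199 and hkb, a terminal gap gene, at rank 415, with none at tll. Of the muscle identity genes 5 of 7 had a summit, led by the homeobox genes ap at rank 1268 and slou at rank 2367, with none at lms. For leg and segment patterning it was 5 of 7, led by the homeobox genes Dr at rank 275 and Dll at rank 616, with none at H, a repressor in the Notch pathway. Counts of summits grow with gene length, which differs between these genes, so the lists are a description only.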

How the data were processed

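ChIP-seq peak lists of 3 biological replicates of cg-GFP embryos were used, with 1 list from the pooled alignments and 1 thresholded by IDR. Chromatin was sonicated to a size of 200 to 800 bp, per the labels. Per the deposited text listings, every list used the same control alignment and the dm6 build. For the aligner, peak caller and IDR threshold, nothing is stated (not given in the sources used here). Peak signal was deposited by the authors for each peak on a scale that differs between lists, so only ranks and ratios within a list were used. The −log10 q values deposited by the authors stood at their ceiling of 4.35 for every thresholded peak and ranked nothing. Read depth is unknown, so no interval that needs it was given.

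Positions are counted from 1. Genes and 23584 distinct TSSs came from Ensembl release 115 (BDGP 6.54) without transposable elements, and bases from the release 6 assembly of RefSeq; on all 6 chromosomes used the last peak ended within it. A replicate row matched a summit when the intervals overlapped by at least 1 bp, and the nearest summit was taken. GT runs held GTGTGT or ACACAC, so had 6 bases or more. An SD is over replicates. Python 3.11.15, numpy 2.4.6 and pandas 2.3.3 were used, and the counting steps were checked on made-up data with known answers.

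The members, gene lists and motifs were chosen with earlier results of these data known. All T-box genes were named. Of each related list, the 2 highest genes and the first without a summit were named, and for each T-box gene those next to it in rank. No test was made, because 1 group has no contrast and the rule used the peaks. The 3 further bi windows, the share without bi summits, the count of TGTGTG and the distance of 1 kb upstream were chosen after values were seen.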

Additional observations from a re-analysis of the deposited data

How the results depend on the processing

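Of 75 alternative values, 63 stayed within the spread of the replicates, within the exact binomial interval of a share or within 1.5 times a count, and 12 did not. Some of the 63 could not have moved by construction. Among them were the mean ranks and overlap counts without 1 replicate, and the ranks within the pooled list. With summits in the gene body only, 1 gene (bi) and 8 summits met the rule, and no rank could be given for the other genes, nor for org-1 at 1 kb. Among the 3956 highest thresholded summits, 4 genes and 10 summits remained, and the pooled list gave 76 summits at 8 genes. At 10 kb the highest rank became 3225 for Doc2 (the Doc3 summit), 2089 for Doc3 (at smg) and 1985 for org-1 (at Miga). With the 1000 highest rows of every replicate 4 summits were counted in place of 12, and also 4 without bi (added after seeing the data). The share with a GT repeat was 43.8% for GTGTGTGT and did not move when TGTGTG was also counted (added later), and the share within 500 bp of a TSS was 66.7% without bi (added later). Leaving out each replicate moved no mean rank beyond its SD. Dropping any value cannot shift a mean by as much as the SD, so no conclusion on stability is drawn from that. The cause of the 12 shifts was not tested beyond what each limit takes away by construction. A summit just below the limit of the thresholded list, such as the pooled row of rank 8144 at Doc2, counts as missing here, while the lowest T-box summit counted had rank 5812; depth decides what such a limit can show and is unknown.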
